A study of Oryza sativa with 216 samples.

Results

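Pi21 is a rice gene for a proline-rich protein with a heavy metal-associated domain. Its common allele makes the plant more susceptible to rice blast, the leaf and panicle disease caused by the fungus Magnaporthe oryzae, and a variant with deletions in the proline-rich part gives partial resistance of the non-race-specific kind. PR1b encodes a basic pathogenesis-related protein of the PR1 family, which is widely used as a marker of active defence, and WRKY62 encodes a transcription factor that represses defence genes. Pi21 was selected on its measured values in these arrays, so its distribution over the lines, the difference between the parents and its relation to PR1b and WRKY62 are given below as descriptions, without a test.

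Flag leaves, the uppermost leaves of the rice tiller, were sampled untreated at heading from 210 recombinant inbred lines (RILs) of a cross between the indica lines Zhenshan 97 and Minghui 63, and from both parents. Each RIL had 1 array, made from the RNA of 2 plantings mixed before labelling, and each parent had 3 arrays, so that only the parents have a spread between replicates. Values are log2 expression values per probe set from robust multiarray averaging (RMA), and the arrays cover 57194 probe sets besides the controls. Pi21 is 1 of 17905 genes that could be named from a probe set of their own. A pair of probe sets is assigned to it, and unless stated its level is read from the one with the larger difference between the parents, called the first here. In the gene table of the assembly ASM3414082v1 the gene is LOC4335725 on chromosome 4. PR1b was read from the probe set of LOC4325422 on chromosome 1, which the study annotates as an SCP-like extracellular protein and which that table lists without the name PR1b. WRKY62 was read from the probe set of LOC4347070 on chromosome 9. Both of these have 1 probe set. A level read from a probe set can also depend on sequence differences between a parent and the probes, which were not examined here.

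The arrays showed the pattern of leaf tissue. The 4 leaf genes RBCS, RCA, GLO1 and CAB2R, which act in photosynthesis and photorespiration, lay between 13.47 and 14.72 in all RILs. The 4 floral MADS genes MADS3, MADS6, MADS7 and MADS8 lay between 3.29 and 7.28, and the seed storage gene GluA1 had a median of 2.68 and a highest value of 7.51. Of the 2 root markers, the silicon transporter gene Lsi2 stayed low with a median of 3.63, but the silicon channel gene Lsi1 had a median of 9.25. Lsi1 also had a correlation of -0.366 with Pi21 over the RILs, and the part of this in the results below was not tested. Array medians ranged from 5.15 to 5.32 over the RILs and had a correlation of -0.161 with Pi21. The differences between the 3' and 5' control probe sets of actin, gapdh and ef1a had correlations of 0.152, -0.0302 and -0.0030 with Pi21.

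Pi21 was low in Zhenshan 97 and high in Minghui 63. The 3 Zhenshan 97 arrays read 4.44, 5.47 and 3.96 on the log2 scale, a mean of 4.62 ± 0.77 (SD, n = 3). The 3 Minghui 63 arrays read 10.31, 11.26 and 9.99, a mean of 10.52 ± 0.66 (SD, n = 3). The groups were far apart and did not overlap, with 5.90 between their means. Because the Zhenshan 97 mean lay below the median of the arrays and was not shown to be above background, no fold change is given. In whole leaves, fewer cells that express the gene and less RNA per cell cannot be told apart. In both parents the array with replicate number 2 was the highest.

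The RILs filled the range between the parents. Pi21 ran from 4.78 to 11.39 over the 210 lines, with a median of 8.72, quartiles of 7.40 and 9.73, and a mean of 8.47 ± 1.52 (SD, n = 210). The SD over the lines was 2.13 times the pooled SD of the parental arrays, 0.72, and ranked 350 among all probe sets, against a median SD of 0.185. By this first probe set the longer tail was on the low side, with a skewness of -0.409. The second probe set, described below, had a skewness of 0.188, with the longer tail on the high side. Counted in steps of 0.5, the fullest step was 9.5 to 10 with 30 lines, and no step between 4.5 and 11.5 was empty. A smaller heap of 26 lines lay between 7.5 and 8, next to a step of 12 lines below it and one of 15 above it.

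**Figure D1:**
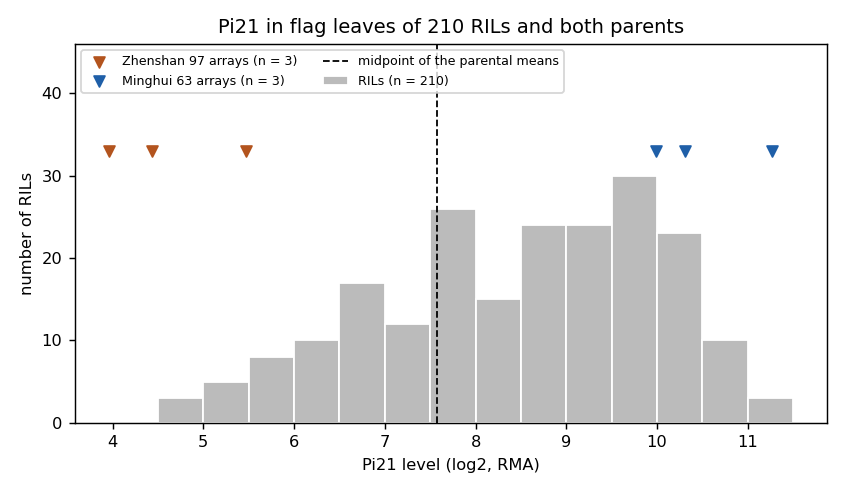
Number of RILs (n = 210) by Pi21 level in steps of 0.5 on the log2 RMA scale, with triangles for the 3 arrays of each parent placed at an arbitrary height and a dashed line at the midpoint of the parental means, 7.57. The lines fill the interval between the parents, and by this probe set, the first, most lie to the right of the midpoint.

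Few lines read as low as the Zhenshan 97 arrays by the first probe set, from which the numbers here are taken. Split at the midpoint of the parental means, 7.57, 72.4% of the 210 lines lay nearer to Minghui 63, and 58 lines (27.6%) lay nearer to Zhenshan 97. The exact binomial 95% interval of the larger share, 65.8% to 78.3%, covers the sampling of lines only. Only 6 lines fell within the range of the Zhenshan 97 arrays, against 35 within the range of the Minghui 63 arrays, and 80% of the lines lay between both ranges. No line was below the lowest Zhenshan 97 array, and 1 line was above the highest Minghui 63 array. Around the midpoint there was no gap, since 18 lines lay within 0.25 of it. The 3 lowest lines read 4.78, 4.80 and 4.89, and the 3 highest 11.39, 11.18 and 11.17. By the second probe set, described below, only 44.3% of the lines were nearer to Minghui 63.

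Such filling of the middle was uncommon among probe sets that differ as much between these parents. Among probe sets with parental means at least 4 apart, 0.343% of all 57194, the median one had 0.952% of the RILs in the middle of the parental interval, from 25% to 75% of the way from Zhenshan 97 to Minghui 63, with quartiles of 0.476% and 4.88%. For Pi21 this share was 48.1%, and 6 of these probe sets (3.06%) had a higher one. The SD over the RILs, divided by the distance from the midpoint to either parental mean, was 0.517 for Pi21, against a median of 0.961 with quartiles of 0.857 and 1.03, and 11 of them (5.61%) had a lower ratio. Most of the others thus had few lines in the middle, and Pi21 had many. These shares describe the probe sets and were not tested.

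To give correlations within parts of the distribution, the lines were divided by a normal mixture with 2 components, whose BIC was 770.9 against 782.6 for a single component. Since Pi21 was selected on this distribution, the fit is a description and no test that the lines form 2 classes. Its components were wide and lay inside the parental means. The lower one was centred at 7.51 with an SD of 1.25 and held 110 lines, and the upper one was centred at 9.76 with an SD of 0.66 and held 100 lines. Their separation, as Ashman's D, was 2.25, just above the value of 2 that was required for them to be called clusters. By this first probe set the lower component was wider than the spread between arrays of either parent. Its centre was 2.89 above the Zhenshan 97 mean. The clusters are weakly defined, since a looser convergence limit moved the centres to 7.11 and 9.56. That limit left 91 lines in the lower cluster, at a BIC of 772.9. For the second probe set, described below, the BIC was 607.0 with 2 components and 608.7 with a single one. There the lower component was the narrower one, with an SD of 0.54 against 0.71. The wide lower and narrow upper component were thus not shared by both probe sets.

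Both probe sets of Pi21 ordered the lines alike but placed them differently between the parents. Over the RILs they had a Pearson r of 0.951 and a Spearman rho of 0.974. The second probe set read 7.20, 7.64 and 7.54 in Zhenshan 97 and 10.96, 11.72 and 10.28 in Minghui 63, a difference of 3.53, and the RILs ran from 7.18 to 11.59. Its spread over the lines was smaller, with an SD of 1.01 against 1.52, and at the low end it flattened while the first probe set went on falling. By the second probe set 93 lines, 44.3%, were nearer to Minghui 63. All 59 lines on which the probe sets differed were above the midpoint by the first and below it by the second, none the other way round. Another probe set, which carries no gene name in the table used, was picked because its r with the first, 0.988, was the highest of all other probe sets. Whether it detects the same transcript was not examined. It lay at 6.78 ± 0.38 (SD, n = 3) in Zhenshan 97 and at a mean of 11.25 ± 0.50 (SD, n = 3) in the Minghui 63 arrays, and it put 62.4% of the lines nearer to Minghui 63. Both probe sets of Pi21 thus shared the order of the lines, and the unnamed one shared it by the way it was picked. The share of lines near each parent differed among the 3.

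**Figure D2:**
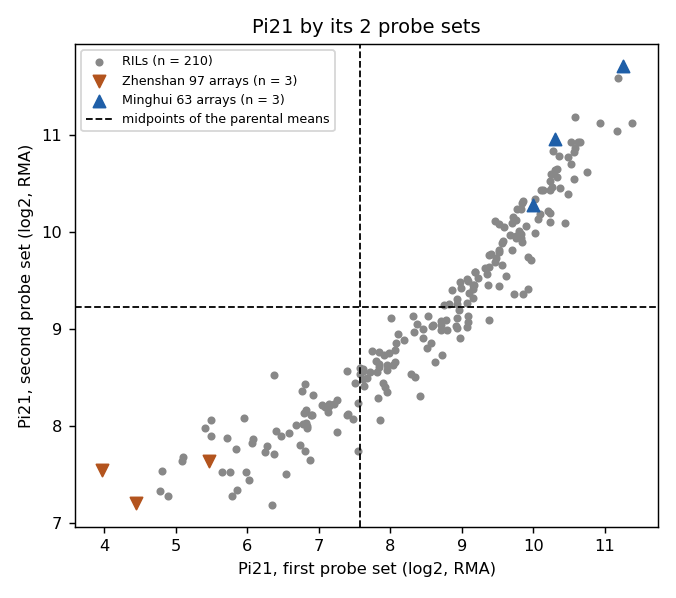
Level of Pi21 by its second probe set against its first (both log2, RMA) in 210 RILs and in the 3 arrays of each parent, with dashed lines at the midpoints of the parental means, 7.57 and 9.22. The lines follow 1 curve (r = 0.951), flat at the low end, and 59 lines lie right of one midpoint and below the other.

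PR1b showed almost no relation to Pi21 over the lines. PR1b ran from 3.85 to 10.50 over the RILs, with a median of 6.87 and an SD of 1.11, so that it varied widely too. Its Pearson r with Pi21 was -0.0323 with a 95% interval of -0.167 to 0.104, and Spearman's rho was 0.0041 (n = 210 lines, 1 array each, all scaled together). Of the other 57192 probe sets, 83.1% had a larger absolute r with Pi21. The r was -0.128 in the lower cluster of lines, with an interval of -0.308 to 0.0602, and 0.0070 in the upper one, with an interval of -0.190 to 0.203. With the 2 lines most distant from the median of Pi21 left out it was -0.0069.

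In the parents, PR1b was uneven. It read 10.68, 6.11 and 10.03 in Zhenshan 97 and 5.86, 6.94 and 5.45 in Minghui 63. The groups overlapped because of Zhenshan 97 replicate 2, which lay at the Minghui 63 level. The difference of the means, Minghui 63 minus Zhenshan 97, was -2.86 with a standard error of 1.05, and the adjusted p from limma was 0.195. The two-sided exact permutation test gave p = 0.20, where 3 arrays against 3 cannot go below 0.10. Without Zhenshan 97 replicate 2 the adjusted p from limma was 0.0016, and without each of the other 5 arrays in turn it was 0.207 to 0.457. That replicate was looked at after its values were seen, and the same array had the highest Pi21 of its parent.

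WRKY62 also showed almost no relation to Pi21 over the lines. It ran from 3.82 to 9.10 over the RILs, with a median of 5.57 and an SD of 1.04. Its Pearson r with Pi21 was -0.0099 with a 95% interval of -0.145 to 0.126, rho was 0.0280, and 94.7% of the other probe sets had a larger absolute r. Within the lower and the upper cluster the r was -0.0514 and 0.0969. WRKY62 read 5.29, 4.21 and 5.01 in Zhenshan 97 and 5.31, 5.71 and 6.95 in Minghui 63. All 3 Minghui 63 arrays were higher, the first by only 0.01, and the difference of 1.15 with a standard error of 0.43 had an adjusted p from limma of 0.204 and an exact two-sided permutation p of 0.10, the smallest possible. PR1b and WRKY62 had an r of 0.0491 and a rho of 0.0307 with each other, so that the absolute r of all 3 pairs was at most 0.0491.

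**Figure D3:**
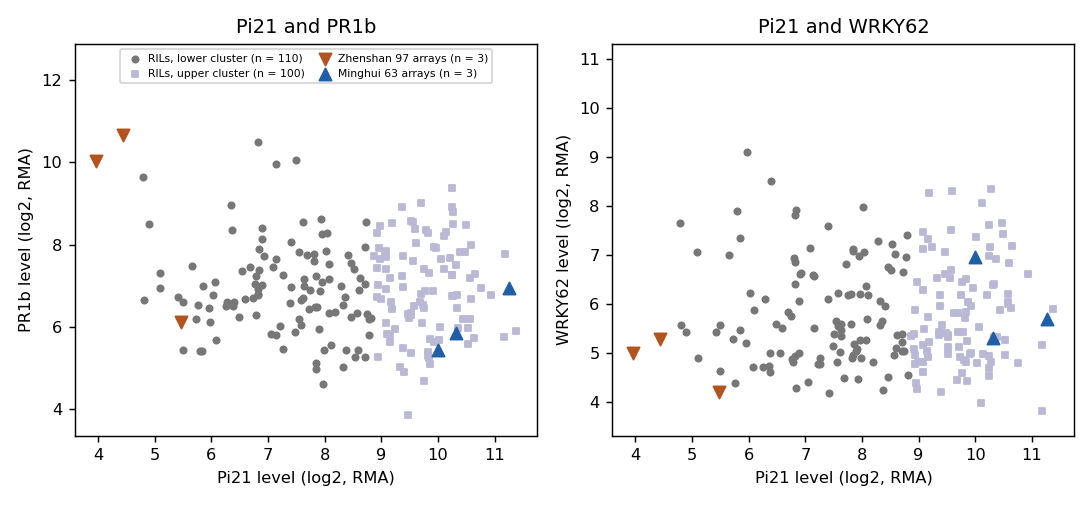
Levels of PR1b (left) and WRKY62 (right) against Pi21 (all log2, RMA) in the 210 RILs, split into the lower (n = 110) and the upper (n = 100) cluster of Pi21, and in the 3 arrays of each parent. Both clouds are flat, with r = -0.0323 and -0.0099, and 1 Zhenshan 97 array lies near 6.11 for PR1b while the other 2 lie above 10.

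PR1b and WRKY62 had close partners of their own. PR1b had an r of 0.756 with OsChia2a, a gene for a chitinase, which cuts the chitin of fungal walls, of 0.724 with CYP99A2, a cytochrome P450 gene of the momilactone cluster on chromosome 4, and of 0.651 with PBZ1, the probenazole-induced PR10 gene. The r of these genes with Pi21 was 0.230, 0.0008 and 0.194, and the 3 probe sets of OsChia2a ran from 0.0343 to 0.233. WRKY62 had an r of 0.862 with OsWRKY76, its neighbour on chromosome 9 and likewise a repressor of defence genes, whose r with Pi21 was 0.0406. These pairs were chosen after their values were seen and stand here only for scale.

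Expression that went with Pi21 over the RILs was broad. Each other probe set was fitted on the Pi21 level with limma, and 28.6% of them, 16370 of 57192, had a slope with an adjusted p under 0.05. Read from 1 probe set a gene, the share was 44.7%, or 7930 of 17737 genes. The largest principal component of the RILs, with 9.38% of the variance over all probe sets, had an r of 0.545 with Pi21, the next had 0.323, and the first 5 together accounted for 43.5% of the variance of Pi21 over the lines. With these 5 components as covariates 1.29% of the probe sets passed, and 2.18% of the genes. Within the clusters of Pi21, fitted with the cluster as a covariate, 17.2% of the genes passed. Counts of genes below are read against these shares. After the components were removed, the r of Pi21 was -0.143 with PR1b (interval -0.273 to -0.0075) and 0.0726 with WRKY62 (interval -0.0634 to 0.206), and 11.3% and 41.6% of the other probe sets had a larger absolute r.

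The genes most like Pi21 over the 210 lines came from several chromosomes. Of the 10 highest, 5 lay on chromosome 4, which holds 1556 of the 17737 genes counted above. For this ranking a gene with several probe sets was taken at the one with the most extreme r. The highest r, 0.678, was that of LOC4335627, 94 gene places from Pi21 on chromosome 4, followed by LOC4329172 on chromosome 2 with 0.659. Next came LOC4335685, MUB4, a gene for a membrane-anchored ubiquitin-fold protein, 36 places away on chromosome 4, with 0.652, and LOC4346900 on chromosome 9 with 0.651. The other 6 of the 10 highest were LOC4335170, LOC4336928 and LOC4336584 on chromosome 4 and LOC4350003, LOC4352307 and LOC4348088 on chromosomes 11, 12 and 10, with r from 0.626 down to 0.600. LOC4336584 is DJA6, a gene for a DnaJ-type co-chaperone. All 10 genes had a higher mean in Minghui 63, as Pi21 had. Of them LOC4336928, LOC4350003, LOC4352307 and LOC4348088 did not pass between the parents. For LOC4335170 the difference was 5.70, from 4.33 in Zhenshan 97 to 10.03 in Minghui 63. The lowest r was -0.679 for LOC4335844 on chromosome 4 and then -0.638 for LOC4347942 and -0.594 for its neighbour LOC4347941 on chromosome 10, -0.599 for LOC4325091, annotated by the study as a receptor-like kinase similar to HAIKU2, and -0.598 for LOC4323945, both on chromosome 1. All 5 had a lower mean in Minghui 63, but LOC4335844, LOC4323945 and LOC4347941 did not pass between the parents. Within the lower and the upper cluster of lines the r of LOC4335627 was 0.496 and 0.408, and that of LOC4335844 was -0.357 and -0.375. MUB4 has 3 probe sets with r from 0.0686 to 0.652, LOC4325091 has 2 with -0.599 and -0.212, and LOC4335844 has 3, all between -0.679 and -0.562. Ranked instead by the probe set of each gene with the highest mean, an order added after seeing the data, the 10 highest were the same genes and 4 of the 5 lowest were shared. LOC4347942 was then the lowest, and LOC4335844 left the list.

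With the 5 components removed, likeness to Pi21 drew together on chromosome 4. The highest genes were then MUB4 with an r of 0.572, YSL6, a gene for a manganese transporter 49 places from Pi21, with 0.550, LOC4335876 with 0.543, LOC4335627 with 0.476 and PDIL5-2, a protein disulfide isomerase-like gene, with 0.466. Of the 10 highest and the 5 lowest, 14 lay on chromosome 4, all within 200 places of Pi21. The exception was MADS15 on chromosome 7, a MADS-box gene of flowering, with 0.406. Its mean was 8.55 in Zhenshan 97 and 11.57 in Minghui 63 (difference 3.02, adjusted p = 0.0236 from limma, n = 3 per parent). LOC4335593 and LOC4335579, with -0.529 and -0.533, fell from 8.50 and 8.83 in Zhenshan 97 to 3.09 and 3.94 in Minghui 63, with adjusted p = 0.0010 and 2.1e-04 from limma, and for LOC4335579 a further probe set had an r of 0.0471. Ranked by the probe sets with the highest mean, 9 of the 10 highest and 4 of the 5 lowest were shared, and 8 and 5 lay on chromosome 4. These names come from the ranking after the removal, which was looked at after the other.

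By chromosome, the share of genes that passed was highest on chromosome 4, narrowly over the 210 lines and widely after the removal. On chromosome 4 it was 48.4%, and on the other chromosomes it ran from 37.1% to 46.7%. With the components as covariates it was 7.90% of the 1556 genes of chromosome 4 and 0.443% to 2.03% on the others. Along chromosome 4, 5 of the 59 genes with a probe set within 50 places of Pi21 passed, 15 of 62 at 51 to 100 places, 27 of 99 from there to 200 places, 23 of 190 from there to 400 places and 23 of 704 beyond 800 places. In the fit without the components 25 of the 59 nearest genes passed, or 42.4% against 44.7% of all genes, a share near the background.

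**Figure D4:**
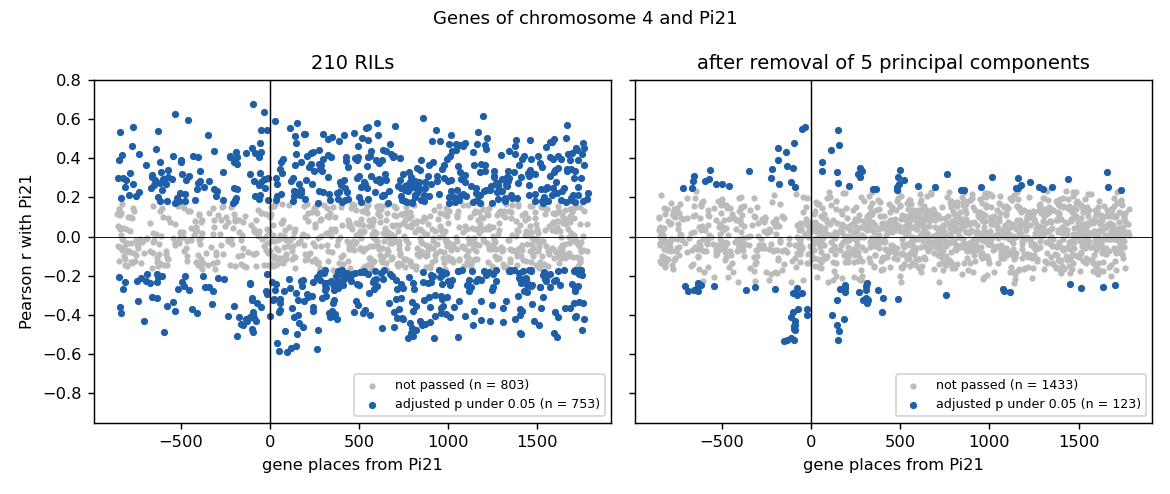
Pearson r with Pi21 for each gene of chromosome 4 with a probe set, by its distance from Pi21 in gene places, over the 210 RILs (left, 48.4% of 1556 genes passed) and after removal of 5 principal components (right, 7.90% passed). Blue points have an adjusted p under 0.05 in the limma fit. On the right the extreme values gather within 200 places of Pi21, and the genes next to it are near 0.

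Few of the genes next to Pi21 were called with it, and several of them were low in both parents. Of the 8 genes within 10 places that have a probe set, 1 passed over the 210 lines, against 44.7% of all genes. It was LOC4335727 at 3 places, with an r of -0.407 (adjusted p = 3.0e-08 from limma). That gene had an r of -0.0648 after the removal and means of 10.18 and 10.21 in Zhenshan 97 and Minghui 63. HAK1, LOC4335729, the gene for a potassium transporter 5 places away, had an r of 0.149 (adjusted p = 0.087) and means of 7.74 and 5.94, with an adjusted p of 0.172 between the parents. The other 6 were LOC4335713, LOC4335718, LOC4335724, LOC4335726, LOC4335730 and LOC4335732, with r from -0.147 to 0.117. Of these, LOC4335718, LOC4335724, LOC4335726 and LOC4335730 had parental means between 3.04 and 4.88, below the median of the arrays, so their r says little. None of the 8 passed with the components as covariates, against 2.18% of all genes. None passed between the parents either, where 7.76% of all genes passed, 1376 of 17737. For only 8 genes, none passing is close to these shares.

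Genes called both between the parents and over the RILs mostly had the same sign in both, near Pi21 and on other chromosomes alike. The parental arrays are other samples than the RILs. Within 50 places, 4 genes passed between the parents, all 4 also had a called slope on Pi21 over the RILs, and in all 4 the sign of the slope was that of Minghui 63 minus Zhenshan 97. On the rest of the chromosome 110 passed between the parents and 95 of these also over the RILs, all with the same sign. On the other chromosomes 1262 passed between the parents, 697 also over the RILs, and 680 of the 697 (97.6%) had the same sign. With the components as covariates the counts were 2 of 2, 35 of 35 and 44 of 46. Of the genes that passed between the parents, 2 of 4 within 50 places of Pi21 also passed in that fit. At 51 to 200 places 16 of 20 did, against 46 of 1262 on the other chromosomes. The range of 51 to 200 places was not planned, and it joins the ranges with the highest shares of calls in the same fit. Neighbouring genes share their segments in the RILs and are not independent.

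Listed defence genes passed about as often as other genes. Of 58 genes in 7 lists, without PR1b and WRKY62, 27 had a called slope on Pi21, 21 positive and 6 negative, which is 46.6% against 44.7% of all genes. Their median absolute r with Pi21 was 0.156, against 0.149 for all genes. With the components as covariates 1 of the 58 passed, against 2.18% of all genes, and within clusters 7 passed, against 17.2%.

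By list, the share that passed ran from 0% of 3 WRKY factors to 75% of 8 chitinase genes, against 44.7% of all genes. The lists hold only 3 to 15 genes, and their shares were not tested against that background. Of 8 genes of immune receptors and signalling, 5 had a positive slope and 1 a negative one. CEBiP, the receptor that binds chitin, had an r of 0.481 (adjusted p = 8.2e-12 from limma), OsRbohB, an NADPH oxidase gene, 0.408 (2.1e-08), OsCERK1, the receptor-like kinase of chitin signalling, 0.367 (8.1e-07) and OsMPK5, a mitogen-activated protein kinase gene, 0.312 (4.0e-05). After the removal these 4 had an r of -0.106, 0.109, 0.0367 and 0.131, and none passed. Of 8 chitinase genes, 4 had a positive and 2 a negative slope. The highest were chia4a with an r of 0.561 (adjusted p = 2.7e-16) and its neighbour OsChia2b with 0.491 (2.6e-12), both on chromosome 4, the latter at a RIL mean of only 2.85. Neither passed with the components as covariates. Chia4a read 4.32, 4.71 and 4.01 in Zhenshan 97 and 7.38, 7.75 and 6.74 in Minghui 63. Its parental groups did not overlap, and the difference of 2.94 with a standard error of 0.28 had an adjusted p of 5.2e-04 from limma.

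Among 8 diterpenoid phytoalexin genes, whose products are antifungal compounds of rice, 4 had a positive slope. OsKSL10, a kaurene synthase-like gene, had an r of 0.332 (adjusted p = 9.9e-06) and passed between the parents with means of 3.88 and 4.79 (adjusted p = 0.0194). The single listed gene that passed with the components as covariates was CYP99A3, on chromosome 4, with an r of -0.249 and an adjusted p of 0.0309, while over the 210 lines its r was -0.135 and its adjusted p 0.127. Of 3 defence output genes PBZ1 and the chitinase gene Cht1 passed, with r of 0.194 and 0.315. None of the 3 WRKY factors of defence besides WRKY62 passed (OsWRKY24, OsWRKY71 and OsWRKY76, r of 0.130, 0.135 and 0.0406). Of 15 salicylic acid regulators, genes of the NPR1 family and TGA factors, 4 had a positive and 1 a negative slope, with TGA2.2, NPR4 and NH2 at 0.399, 0.387 and 0.351. Of 13 JAZ genes, which repress jasmonate signalling, 2 were positive and 2 negative. JAZ2 differed most between the parents among the listed genes, at 2.34, 2.50 and 2.03 in Zhenshan 97 against 5.26, 6.17 and 5.77 in Minghui 63 (difference 3.44, adjusted p = 6.2e-05), but had an r of only 0.117 with Pi21 and did not pass over the RILs (adjusted p = 0.195). Between the parents 5 of the 58 listed genes passed, all higher in Minghui 63 (chia4a, OsChia2b, OsKSL10, JAZ1 and JAZ2), which is 8.62% against 7.76% of all genes.

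**Figure D5:**
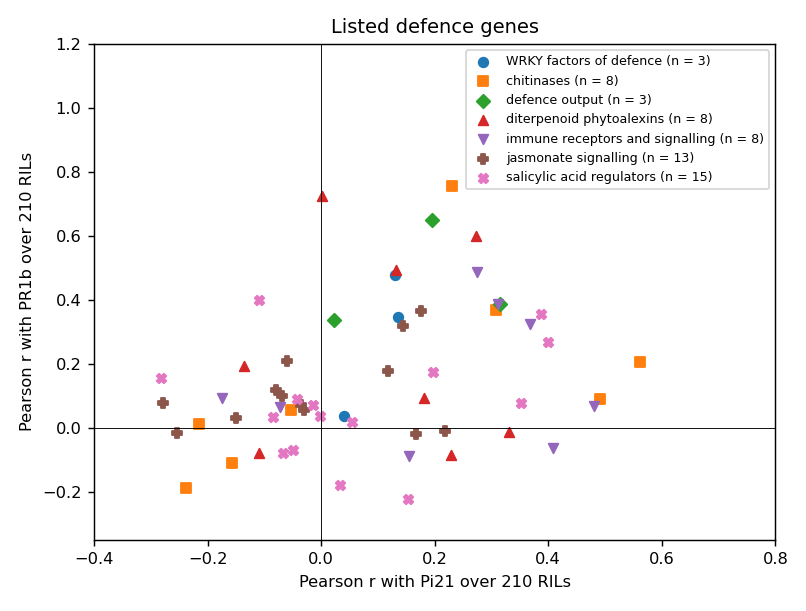
Pearson r with PR1b against Pearson r with Pi21, both over 210 RILs, for 58 listed defence genes, marked by list. The 4 genes with an r over 0.6 with PR1b, up to 0.756, had an r with Pi21 of at most 0.272, and chia4a is farthest to the right at 0.561.

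Probe sets that the study annotates as proteins with a heavy metal-associated domain, the family of Pi21, were 6 in the annotation used. The study listed them for their regulation in these same lines, so their counts are no independent evidence. Of the 6, 4 had a called slope on Pi21, against 28.6% of all probe sets. LOC4349064, LOC4342974 and LOC4327517 had r of -0.550, -0.499 and -0.370, and LOC4324048 had 0.239. None of the 6 passed with the components as covariates, against 1.29% of all probe sets, with r between -0.124 and 0.129. Between the parents, where 5.32% of all probe sets passed, LOC4342974 fell from 6.51 in Zhenshan 97 to 4.03 in Minghui 63 (adjusted p = 6.3e-04 from limma) and LOC4327517 from 11.08 to 9.82 (adjusted p = 0.0140), the opposite direction to Pi21. The other 4 did not pass.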

How the data were processed

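The authors hybridised flag leaf RNA to Affymetrix rice arrays and deposited log2 expression values per probe set, made with RMA and the affy package (versions not given in the sources used here). The values were used as deposited, from every array and without the control probe sets. Parental values rest on 3 arrays each, and this number limits their precision.

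Every probe set was fitted with limma 3.58.1 in R 4.3.3 (lmFit, eBayes with trend, Benjamini-Hochberg, threshold 0.05), on the Pi21 level over the 210 RILs and between the parents. For gene counts, though not for the ranking by r, the probe set with the highest mean over the RILs was used for each gene. Correlations, intervals (Fisher's transformation, 95%) and the normal mixture used Python 3.11.15, numpy 2.4.6, scipy 1.17.1 and scikit-learn 1.9.0. Of the 57194 probe sets, 22436 had 1 gene, 95 several and 34663 none in the table used. Gene order was that of protein-coding genes in ASM3414082v1, and distances count gene places. The genes named are Pi21, PR1b and WRKY62, the 10 highest and 5 lowest r, genes within 10 places, and listed genes that passed, with up to 4 examples a list, with exceptions stated where they occur. Some genes outside these are named to complete a list.

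Members and lists were chosen with earlier results of these data known. Of 51 genes listed by name 24 were found. Of the blast resistance list none was found, and JAZ, chitinase and NPR1 or TGA genes were matched by symbol. Symbols of the TLP kind were left out of the chitinase list after values were seen, because tubby-like and thaumatin-like genes share them. On simulated data over 57194 probe sets, slopes of 0.3 and 0.5 SD on Pi21 were called in 67.0% and 100% of 100 probe sets each, and parental differences of 1 and 3 in 38.0% and 96.0%. Of the simulated calls, 7.74% and 1.47% were false. The simulated probe sets varied independently of each other, unlike those of the arrays, so these rates do not carry over to the calls reported above. Alternatives tried were the trend, a filter on low probe sets, quantile normalization, 5 principal components, blocks of 10 lines, the cluster or the rank of Pi21, other windows, the replicate block and leaving out arrays. Genotypes and probe sequences were not used here.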

Additional observations from a re-analysis of the deposited data

How the results depend on the processing

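The share of lines nearer to Minghui 63, 72.4%, lay between 68.6% and 75.7% without single parental arrays and was 71.9% after quantile normalization. It was 47.6% by the clusters of the mixture and, in alternatives chosen after seeing the data, 56.7% with looser convergence, 44.3% by the second probe set of Pi21 and 62.4% by the unnamed one. The correlations with PR1b ran from -0.143 to 0.0070 and those with WRKY62 from -0.0514 to 0.0969 over all alternatives, within the interval of the value over 210 lines. The lowest with PR1b, after removal of 5 components, had an interval of its own, -0.273 to -0.0075, and the intervals of the other settings included 0. Since Pi21 was selected on this relation too, the intervals are descriptions and no test. Other probe sets of PR1b and WRKY62 could not be tried, since each has 1. The count of probe sets with a slope on Pi21, 16370, fell to 735 with 5 principal components as covariates and to 5345 with the cluster as a covariate, the count among 59 neighbours from 25 to 5 and 11, and that among listed genes from 27 to 1 and 7. Windows of 25 and 100 places held 11 and 57 called genes. The cause was not tested. Between the parents 3043 probe sets passed, from 1544 to 3418 when single arrays were left out, with 1544 without Minghui 63 replicate 1, 1849 without Zhenshan 97 replicate 3 and 1947 without Zhenshan 97 replicate 1. With the replicate block 2312 passed. Deviations of equally numbered parental arrays had correlations of -0.202, -0.260 and -0.0707, and those of unequally numbered arrays ran from -0.134 to 0.230. With 3 arrays per parent, these values cannot show whether the numbers pair the samples. The replicate block left the adjusted p of PR1b and WRKY62 at 0.239 and 0.171.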

Other observations

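The arrays carry 10 control probe sets whose names begin with Mgr, an abbreviation that the files do not expand, for actin, ef1a and gapdh. In the RILs they lay between 3.10 and 6.71, and the medians of 8 of the 10 were below the median of the arrays, with SDs of 0.153 to 0.229. Their correlations with Pi21 ran from -0.182 to 0.0900 and those with PR1b from -0.172 to 0.0425.

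Means of Pi21 over the 21 blocks of 10 lines in the order of the line numbers ran from 7.56 to 9.27. With the blocks centred, r was -0.0240 with PR1b and -0.0506 with WRKY62.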
